A study of Homo sapiens with 4 samples.

Results

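The genes examined were 9 apolipoproteins and MTTP, the protein that loads lipid onto APOB. These members are the 10 rows of the expression table whose symbol is APOA1, APOA2, APOA4, APOB, APOC1, APOC3, APOE, APOH, APOM or MTTP, out of 18806 genes listed. All 10 had a mean of at least 1 TPM (an RNA level corrected for transcript length and scaled so that a library sums to 1000000) over the 4 libraries and were tested among 11971 genes.

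RNA-seq was performed in Huh7, a human hepatocellular carcinoma line, to find transcripts that depend on METTL16, an m6A RNA methyltransferase. One single clone of Huh7 that stably expressed Cas9 was the parent of both groups. It was transduced with lentivirus carrying a non-targeting guide (sgNS, genotype given as WT, 2 libraries) or a METTL16 guide (sgMETTL16, genotype given as METTL16 knockdown, 2 libraries), and both groups were selected with hygromycin B. The comparison therefore rests on 1 clone. The captions of the study's RNA-seq figures name no METTL16 guide, so the number of guides behind the 2 libraries is not known here. The study calls the 2 libraries of a group biological replicates, but separate transductions are not described, so that the p-values measure only the spread between these libraries.

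METTL16 itself had 26.3 and 25.1 TPM in the sgNS libraries against 17.6 and 18.8 TPM with sgMETTL16, a log2 fold change of -0.50. The study calls its edited cells METTL16 knockout and gives Western blots of the knockout efficiency in Huh7. The RNA level is no measure of how much protein was lost. The read depth of the libraries is unknown. All 11 hepatocyte marker genes looked for, among them ALB and TTR, were abundant, the lowest value being 358 TPM for FGB in an sgNS library. Of 8 mesenchymal and blood markers the summed level was 10.1 to 11.2 TPM in sgNS and 14.2 to 15.8 TPM in sgMETTL16. Of the 3 that were tested, CD68 was higher, by 1.49 on the log2 scale, and PECAM1 and PDGFRB were lower, at -0.75 and -0.67. Of 8 intestinal markers, 5 were above the 1 TPM minimum. The sum over all 8 was 93.5 and 93.6 TPM in sgNS and 189 to 197 TPM in sgMETTL16, with CDX2, CDH17 and SI higher, VIL1 and LGR5 lower, and CDX1, FABP2 and MUC2 at or near 0. The intestine also expresses APOA1, APOA4, APOB and MTTP, and the part of these markers in the results was not tested.

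Apolipoproteins are the protein components of lipoproteins, the particles that carry cholesterol and triglyceride in plasma, and the liver is the main source of most of them. APOB forms the frame of very-low-density particles, which the hepatocyte assembles with the help of MTTP and secretes. APOA1 and APOA2 are the main proteins of high-density particles, whereas the small C-type apolipoproteins and APOE move between particles and control their breakdown and uptake.

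Among the 10 genes, 3 changed by more than 2-fold in sgMETTL16. APOA2 fell 3.72-fold, APOM fell 3.0-fold and APOH rose 2.64-fold. To show what lies before these 3 genes, the 250 bases upstream of their start sites were taken from the RefSeq promoter table (GRCh38.p14) and are given 5′ to 3′ on the strand of the gene. They lie at chr1:161223629-161223878 on the minus strand for APOA2, chr6:31655644-31655893 on the plus strand for APOM and chr17:66229416-66229665 on the minus strand for APOH. Capitals mark a match to any of 7 short motifs that were searched on both strands over all 300 bases of each entry, the 50 bases after the start included. The RefSeq start of APOA2 is within a few bases of the gene's end in GENCODE, while those of APOM and APOH lie inside the longer GENCODE genes.
APOA2: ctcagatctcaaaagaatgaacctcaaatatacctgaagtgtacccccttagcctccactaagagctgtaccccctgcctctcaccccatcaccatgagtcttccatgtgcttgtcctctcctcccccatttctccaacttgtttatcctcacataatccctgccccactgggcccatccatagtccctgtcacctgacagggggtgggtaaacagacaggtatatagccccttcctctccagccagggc
APOM: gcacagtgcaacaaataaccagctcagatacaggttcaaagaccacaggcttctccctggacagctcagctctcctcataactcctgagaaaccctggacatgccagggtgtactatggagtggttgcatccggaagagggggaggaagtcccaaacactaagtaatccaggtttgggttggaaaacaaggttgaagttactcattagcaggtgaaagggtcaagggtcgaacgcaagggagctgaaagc
APOH: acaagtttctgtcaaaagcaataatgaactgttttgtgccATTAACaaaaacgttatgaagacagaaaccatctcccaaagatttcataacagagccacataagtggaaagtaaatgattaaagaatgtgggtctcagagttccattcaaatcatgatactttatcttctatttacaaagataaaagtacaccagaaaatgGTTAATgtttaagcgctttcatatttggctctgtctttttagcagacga

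The first motif was the TATA box, written TATAAA, which 11.5% of the 35116 promoter entries held. For nuclear receptors, the element AGGTCA was searched, which was found in 13.8% of the entries, and for HNF4A the longer CAAAGTCCA, found in 0.384%. The motif GTTAAT was in 6.88% of entries, the C/EBP type, TTGCNNAA, in 10.5%, the E box, or CACGTG, in 7.26%, and the CCAAT box in 34.6%. No motif overlapped another among the matches found in these 10 genes' entries. APOH held GTTAAT at 2 positions, 1 on each strand, which begin 49 and 210 bases before the start site. The APOA2 and APOM entries held none of the 7 motifs. Entries were found for 7 of the 10 genes, those for APOA1, APOB and APOC3 being absent from the table. Of the others, APOE and MTTP had matches in at least 1 of their entries, with CCAAT in both, and APOA4 and APOC1 had none. The share of G and C was 35.0% in the APOH entry, 53.0% in that of APOA2 and 51.3% in that of APOM, against a median of 58.7% over all promoters.

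All 10 genes passed the threshold of limma's test, an adjusted p of 0.05, 4 of them lower and 6 higher in sgMETTL16. Calls were frequent throughout this comparison. Of all genes tested, 25.6% were lower and 50.1% were higher by that rule, so that a call by itself sets these genes little apart. With a change of at least 2-fold also required, 2 members were lower and 1 was higher, against 3.77% and 7.7% of all genes tested. The groups did not overlap in any of the 10 genes, nor in 87.4% of all genes tested. The median log2 fold change was 0.31 over the 10 genes and 0.16 over all genes tested. Since TPM sums to the same total in every library, the direction of a small change can depend on the scaling. Median-ratio scaling, which divides each library by the median ratio of its genes to their means over the libraries, took the median over all genes to -0.0016, and then called 4375 genes lower and 4359 higher, against 3065 and 5999 without it. With quantile normalization, 4248 were lower and 4420 higher. No member changed direction under either.

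**Figure D1:**
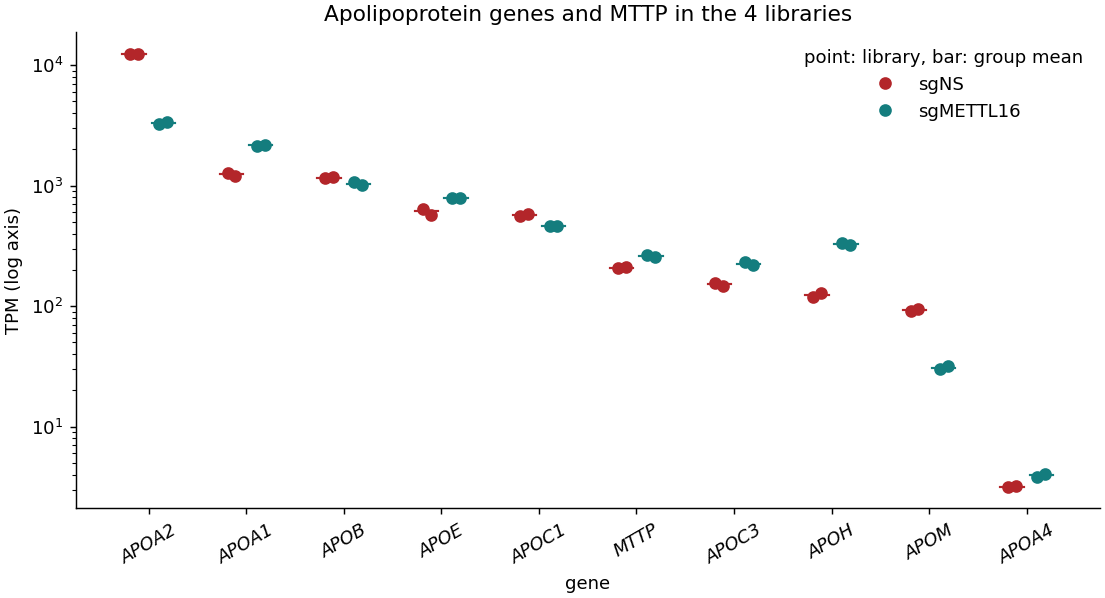
Level of each gene in TPM on a log axis, with 1 point per library and a bar at the mean of the 2 libraries of a group. The points of the groups are far apart for APOA2, APOM and APOH, and close for APOB, APOA4 and MTTP.

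The proteins of high-density particles did not move together. APOA2, the second main protein of these particles, is found on chromosome 1 of GRCh38, minus strand, from 161222292 to 161223631, and its canonical transcript has 4 exons and 474 bases. It stood at 12409.8 and 12347.3 TPM with sgNS and 3277 and 3374.6 TPM with sgMETTL16. The group means were 12378.5 ± 44.2 and 3325.8 ± 69.0 TPM (SD, n = 2). In both sgNS libraries it ranked 1st of all genes listed, and in sgMETTL16 it ranked 20th and 18th. The log2 fold change was -1.90 with a standard error of 0.023 (limma adjusted p = 1.3e-12). The group mean fell by 9052.7 TPM, the largest fall of any gene listed. In bulk RNA, fewer cells that express a gene and less RNA per cell cannot be told apart.

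APOA1, the main protein of high-density particles and the cofactor of the enzyme LCAT, went the other way. It had 1278 and 1205.6 TPM in the sgNS libraries against 2140.9 and 2188.6 TPM with sgMETTL16. Both sgMETTL16 libraries lay above both sgNS libraries, and 87.4% of all genes tested likewise had groups that did not overlap. The log2 fold change was 0.80 with a standard error of 0.031 (limma adjusted p = 3.0e-09). APOA2 was 9.71 and 10.2 times as abundant as APOA1 in the sgNS libraries and 1.53 and 1.54 times as abundant in the sgMETTL16 libraries. Such a ratio within a library does not depend on any scaling by 1 factor per library.

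APOM, a lipocalin that rides mainly on high-density particles and carries a bioactive sphingolipid, stood at 91.3 and 94.4 TPM with sgNS and 30.1 and 31.7 TPM with sgMETTL16. Its log2 fold change was -1.58 with a standard error of 0.048 (limma adjusted p = 5.0e-10), the 111th lowest of the 11971 genes tested, while that of APOA2 was the 53rd lowest. The groups were far apart, at 92.8 ± 2.19 and 30.9 ± 1.15 TPM (SD, n = 2). APOM runs from 31652416 to 31658210 on the plus strand of chromosome 6 and overlaps BAG6 on the opposite strand. The library kit keeps the strand, but whether the counting used it is not given in the sources used here. APOM was at 0.0714 and 0.0783 of the APOA1 level in sgNS and at 0.0141 and 0.0145 of it in sgMETTL16.

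APOA4, which is made chiefly in the intestine and is also carried on high-density particles, was barely expressed. It had 3.17 and 3.19 TPM in the sgNS libraries against 3.85 and 4.06 TPM with sgMETTL16, a log2 fold change of 0.31 with a standard error of 0.12 (limma adjusted p = 0.040). This call did not hold under median-ratio scaling, with a log2 fold change of 0.14 (limma adjusted p = 0.30). It was also lost when any 1 of the 4 libraries was left out, with adjusted p-values from 0.077 (without the first sgMETTL16 library) to 0.15 (without the second).

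**Figure D2:**
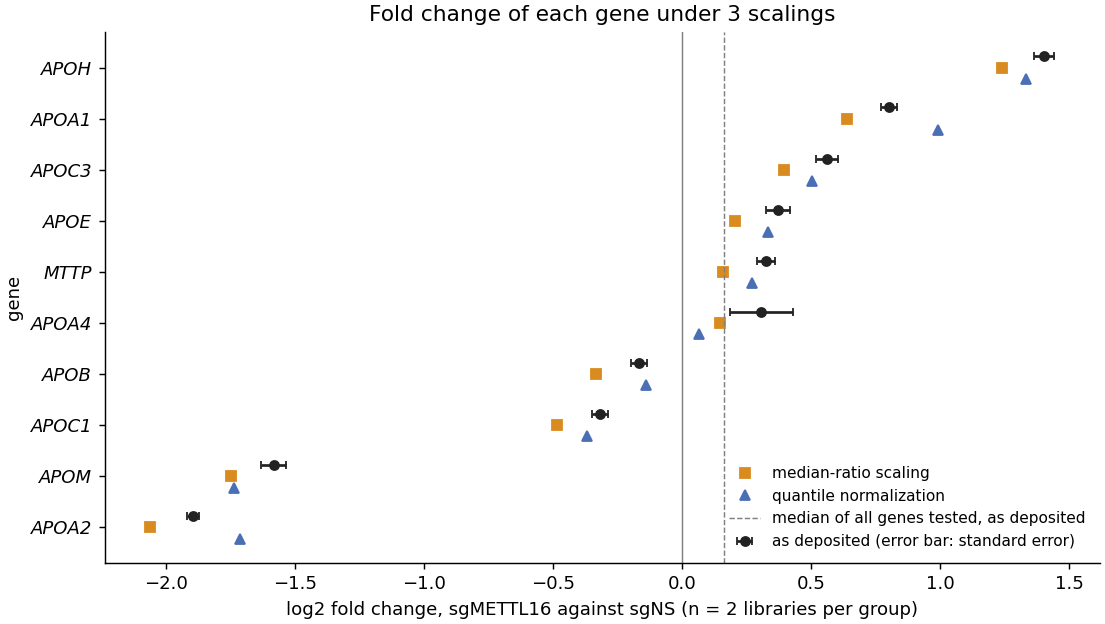
Log2 fold change of sgMETTL16 against sgNS for each gene, with the standard error for the values as deposited and with the values after median-ratio scaling and quantile normalization. No gene crosses 0, and the values of APOA4 come closest to it, down to 0.064 with quantile normalization.

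APOB and MTTP, which are needed together for very-low-density particles, changed little and in opposite directions. APOB, on chromosome 2 from 21001429 to 21044073 on the minus strand, has a canonical transcript of 14121 bases in 29 exons and stood at 1156.8 and 1169.7 TPM with sgNS and 1066.7 and 1005 TPM with sgMETTL16. Its log2 fold change was -0.17 with a standard error of 0.032 (limma adjusted p = 5.7e-04). The fall was small. Both sgMETTL16 libraries lay below both sgNS libraries, but the groups did not overlap in 87.4% of all genes tested either. With an unmoderated linear model in place of limma's shared spread, the adjusted p was 0.093.

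MTTP, which transfers lipid to APOB in the endoplasmic reticulum, is on chromosome 4 from 99564081 to 99623997 on the plus strand. It had 206.2 and 211.2 TPM in the sgNS libraries against 266.2 and 256.4 TPM with sgMETTL16, a log2 fold change of 0.32 with a standard error of 0.035 (limma adjusted p = 8.2e-06), or 0.16 above the median gene. The ratio of APOB to MTTP was 5.61 and 5.54 in sgNS and 4.01 and 3.92 in sgMETTL16. The ratio of APOB to APOA1, the structural proteins of the 2 main classes of particle, was 0.905 and 0.970 in sgNS and 0.498 and 0.459 in sgMETTL16.

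The exchangeable apolipoproteins split as well. APOC3, an inhibitor of triglyceride breakdown and of particle uptake, stood at 156.4 and 148 TPM with sgNS and 230.8 and 218.3 TPM with sgMETTL16. Both sgMETTL16 libraries were above both sgNS libraries, in a comparison where groups did not overlap in 87.4% of all genes tested. Its log2 fold change was 0.56 with a standard error of 0.042 (limma adjusted p = 4.4e-07). APOC1, an inhibitor of the transfer protein CETP, had 564.5 and 583.8 TPM in the sgNS libraries against 460.6 and 459.8 TPM with sgMETTL16, a log2 fold change of -0.32 with a standard error of 0.030 (limma adjusted p = 2.8e-06).

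APOE, the ligand by which remnant particles bind receptors on liver cells, stood at 645.7 and 574.6 TPM with sgNS and 783 and 792.5 TPM with sgMETTL16. The log2 fold change was 0.37 with a standard error of 0.046 (limma adjusted p = 2.3e-05). The 2 sgNS libraries differed by 0.17 on the log2 scale, the widest gap between replicates of any of the 10 genes, and with an unmoderated linear model the adjusted p was 0.078. APOE and APOC1 lie next to each other on chromosome 19. Their ratio was 1.14 and 0.984 in sgNS and 1.70 and 1.72 in sgMETTL16.

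APOH, a plasma glycoprotein that binds anionic phospholipids and circulates mostly free of lipoproteins, had the largest rise of the 10. It had 119.8 and 127.4 TPM in the sgNS libraries against 331.1 and 322.9 TPM with sgMETTL16, with group means of 124 ± 5.38 and 327 ± 5.81 TPM (SD, n = 2). The gene runs from 66212033 to 66256525 on the minus strand of chromosome 17. The log2 fold change was 1.40 with a standard error of 0.039 (limma adjusted p = 2.7e-10), the 445th highest among the genes tested. From 8th in order among the 10 genes in sgNS it came to be 6th in sgMETTL16, above MTTP and APOC3.

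The order of levels in sgNS was APOA2, APOA1, APOB, APOE, APOC1, MTTP, APOC3, APOH, APOM and APOA4. Each gene was above the next in both sgNS libraries, apart from APOE and APOC1, whose values overlapped. In sgMETTL16 the order differed only in the place of APOH, and each gene was above the next in both libraries.

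APOA2 made up most of the sum of the 10 genes in sgNS. Together the 10 genes took 16631.6 and 16465.3 TPM in the sgNS libraries, or 1.66% and 1.65% of all transcripts, and 8590.3 and 8653.9 TPM, or 0.859% and 0.865%, in the sgMETTL16 libraries. APOA2 made up 74.6% and 75.0% of that sum in sgNS and 38.1% and 39.0% in sgMETTL16. Without APOA2 the other 9 genes summed to 4221.9 and 4118 TPM in sgNS and to 5313.3 and 5279.3 TPM in sgMETTL16. The mean of this sum rose by 1126.4 TPM, and the mean of APOA1 alone rose by 922.96 TPM. Most of the rise was thus in APOA1, and it does not describe the remaining genes as a group. The share of APOA1 in the sum of the 10 went from 7.68% and 7.32% to 24.9% and 25.3%. The 100 genes with the highest mean over the libraries fell by 39852.7 TPM in sum, and APOA2, 1 of 2 members among them beside APOA1, fell by 9052.7 TPM.

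**Figure D3:**
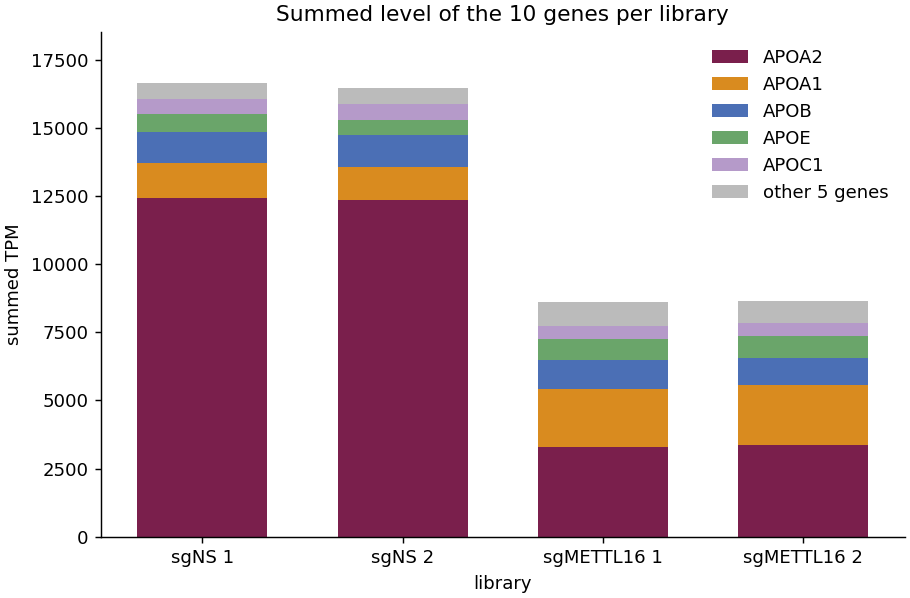
Summed TPM of the 10 genes in each library, stacked by gene, with APOM, APOH, APOC3, MTTP and APOA4 together in grey. The sgNS bars reach 16631.6 and 16465.3 TPM and the sgMETTL16 bars 8590.3 and 8653.9 TPM, and the APOA2 segment shrinks by more than the whole bar does.

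APOA2, APOC1 and APOC3 have the shortest canonical transcripts of the 10 genes. The canonical transcript has at most 600 bases in 141 of the genes tested, these 3 included. By the same threshold, 46 of these 141 genes fell and 76 rose, or 32.6% and 53.9%, beside 25.6% and 50.1% of all genes tested. The median of their log2 fold changes was 0.15, beside 0.16 over all genes tested. Of the 3 members among them, APOA2 and APOC1 fell and APOC3 rose. The part of transcript length in these values was not tested.

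Several of the genes lie in clusters, and neighbours were compared within 250 kb of the start sites. On chromosome 11, APOA1 (116835751 to 116837622, minus strand), APOC3 (116829706 to 116833072, plus strand) and APOA4 (116820700 to 116823304, minus strand) lie side by side and all 3 were higher in sgMETTL16. APOA1 overlaps the antisense gene APOA1-AS. APOA5, the fourth apolipoprotein of that cluster and an activator of triglyceride breakdown, stood at 2.54 and 2.44 TPM with sgNS and 1.06 and 1.08 TPM with sgMETTL16, a log2 fold change of -1.15 (limma adjusted p = 1.5e-04). ZPR1, whose start site is at -49.6 kb from that of APOA1 (a minus sign means toward lower coordinates), rose by 1.09 on the log2 scale.

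On chromosome 19, APOE (44905791 to 44909393) and APOC1 (44914247 to 44919349) are followed on the plus strand by APOC4 and APOC2. APOC2, the activator of lipoprotein lipase, had 500.6 and 482.1 TPM in the sgNS libraries against 539.4 and 544.6 TPM with sgMETTL16. Its log2 fold change was 0.14 as deposited and -0.024 with median-ratio scaling. APOC4 stood at 2.39 and 1.94 TPM with sgNS and 1.19 and 0 TPM with sgMETTL16. Of the 14 genes tested around APOE that are not members, 10 were higher and 2 were lower, BCAM and APOC4, as deposited. The member APOC1, which also lies there, was lower. Over all genes tested, 50.1% were higher and 25.6% lower.

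Around APOA2, 16 other genes were tested, of which 8 were higher and 3 lower, with a median log2 fold change of 0.14. TOMM40L, which starts 2.3 kb away on the other strand, rose by 0.49 on the log2 scale. PPOX, an enzyme of heme synthesis at -57.6 kb, fell by 1.95 on that scale, about as far as APOA2. Both tested genes around APOH were higher, PRKCA by 0.47 and CEP112 by 0.93 on the log2 scale. Of the 9 around APOM, 4 were higher and 2 lower. BAG6, which overlaps APOM, is not among these 9.

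**Figure D4:**
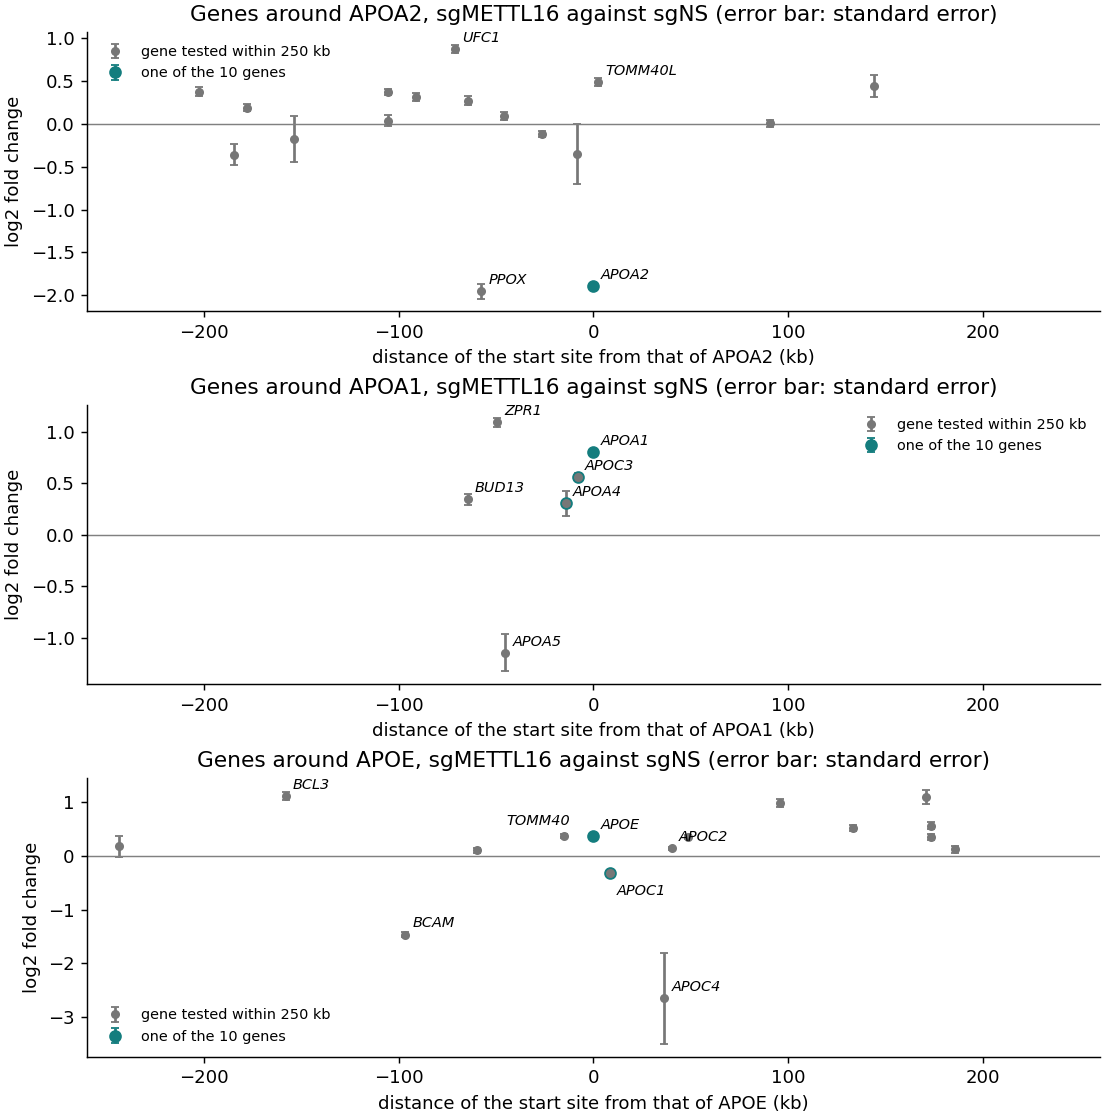
Log2 fold change with its standard error for genes tested within 250 kb of APOA2, APOA1 and APOE, placed by the distance between start sites in kb. APOA2 and PPOX stand at -1.90 and -1.95, below the other genes of their panel, and higher and lower genes lie side by side in the APOA1 and APOE clusters.

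To name the genes whose values over the 4 libraries were most like those of the 3 members past 2-fold, each gene's log2 values were centred on their mean and the Euclidean distance was taken. Nearest to APOA2 were XPOT, AMN and BRINP3, at distances of 0.035, 0.057 and 0.074 on the log2 scale. Nearest to APOM were HSD17B7, KAT5 and TSPAN31, at 0.034, 0.059 and 0.060. ADM, FGD6 and PRDM2 were nearest to APOH, at 0.030, 0.038 and 0.047. Over 4 libraries in 2 groups, such a distance mostly reflects the size of the change between the groups.

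The other genes of lipoprotein metabolism were read from lists. The counts for each list, as deposited, stand beside 25.6% lower and 50.1% higher over all genes tested. Of 15 further apolipoproteins, 8 reached the minimum level, and all of these passed the test. APOL1 reached it only through its sgMETTL16 values and APOC4 only through its sgNS values, so that these counts partly follow from the filter. Among them 3 were lower and 5 higher, with a median of 0.50 (3, 4 and 0.34 with median-ratio scaling). Besides APOC4 and APOA5, the third that fell was APOO, a mitochondrial protein, by 0.54 on the log2 scale. The rises were in APOL1, APOL6, APOL2, CLU and APOC2, the first 3 being intracellular or serum proteins of the APOL family that interferons induce. With median-ratio scaling APOC2 was not called. APOL1 had 0.38 and 0.28 TPM in the sgNS libraries against 2.67 and 2.77 TPM with sgMETTL16. CLU, also called apolipoprotein J, a secreted chaperone, stood at 724.3 and 715.4 TPM with sgNS and 1311.5 and 1301.3 TPM with sgMETTL16, a log2 fold change of 0.86.

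Of 19 genes for the assembly and secretion of particles, 18 were tested, with 7 lower and 8 higher and a median of 0.12 (7, 6 and -0.044 with median-ratio scaling). The enzymes for the last step of triglyceride synthesis went apart. DGAT1 had 62.9 and 57.5 TPM in the sgNS libraries against 16.3 and 15.6 TPM with sgMETTL16, a log2 fold change of -1.91 (limma adjusted p = 6.0e-10). DGAT2 stood at 52.3 and 48.5 TPM with sgNS and 115.03 and 119.7 TPM with sgMETTL16, with 1.22 (limma adjusted p = 3.4e-09). CIDEB, which helps to load lipid onto these particles, fell by 1.74 on the log2 scale, P4HB, the protein disulfide isomerase that pairs with MTTP, fell by 0.79, and SORT1, a sorting receptor for APOB, fell by 0.36. The largest rises after DGAT2 were in PLA2G12B, a catalytically inactive phospholipase relative needed for particle secretion, with 1.15, A1CF, the RNA-binding cofactor of APOB mRNA editing, with 0.62, and KLHL12, with 0.44. APOBEC1, the editing enzyme, was listed at 0 in all 4 libraries.

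Of 14 genes that remodel particles in plasma, 12 were tested, with 5 lower, 4 higher and a median of -0.012 (6, 2 and -0.18 with median-ratio scaling). The falls included ANGPTL8, an inhibitor of lipoprotein lipase, at -1.85, the exporter ABCG1 at -1.51 and LIPG, endothelial lipase, at -0.72. PON1, an esterase carried on high-density particles, and LIPC, hepatic lipase, rose by 1.07 and 1.00, and PON3 and PLTP by 0.41 and 0.29, of which the last 2 were not called with median-ratio scaling. ABCA1, the exporter that loads APOA1 with lipid, was not called, at 0.086 as deposited and -0.080 with median-ratio scaling (limma adjusted p = 0.12 and 0.14).

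Among 10 receptors and uptake factors, 5 were lower and 3 higher, with a median of -0.31 (6, 2 and -0.47 with median-ratio scaling). LRP1 had 90.2 and 77.7 TPM in the sgNS libraries against 30.5 and 29 TPM with sgMETTL16, a log2 fold change of -1.49 (limma adjusted p = 8.9e-09). LRP8 was at -1.41, SCARB1, the receptor for high-density particles, at -0.90, and SDC1, a heparan sulfate proteoglycan, at -0.77. The rises included LSR, with 0.88, and MYLIP, with 0.21, which was not called with median-ratio scaling.

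Of 25 transcription factors and cofactors that act on apolipoprotein genes, 24 were tested, and 9 were lower and 8 higher, with a median of 0.038 (13, 6 and -0.13 with median-ratio scaling). HNF4A, a nuclear receptor that activates many apolipoprotein genes, stood at 172.2 and 160 TPM with sgNS and 266.3 and 273.1 TPM with sgMETTL16, a log2 fold change of 0.70 (limma adjusted p = 6.8e-08). The largest rises were in ONECUT1, with 1.31, NR5A2, with 1.06, and PROX1, with 0.84. The largest falls were in SREBF2, at -0.83, NR0B2, at -0.63, SREBF1, at -0.55, and FOXO1, at -0.51. CEBPA was not called, at 0.039 (limma adjusted p = 0.37), and was called lower with median-ratio scaling, at -0.13. For 7 of the 24 the test was not passed, which does not show that they did not change.

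Of the 11 hepatocyte markers, 8 were higher and 2 lower, with a median of 0.74 (7, 3 and 0.58 with median-ratio scaling). AFP, the fetal counterpart of albumin, rose by 2.54 on the log2 scale, FGB by 1.84, FGA by 1.68 and FGG by 1.50, and TF and RBP4 fell by 0.43 and by 0.12. APOA2, at -1.90, lay below all 11 of them.

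**Figure D5:**
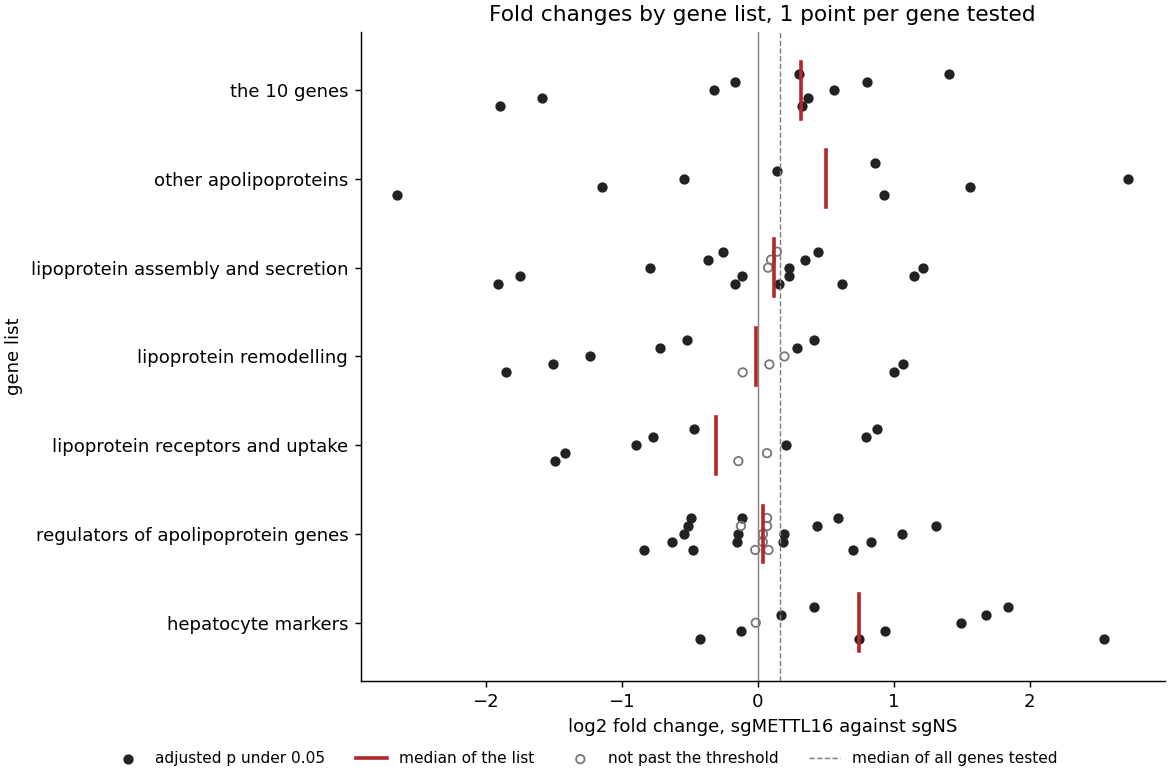
Log2 fold change of each gene tested, by list, with filled points at an adjusted p under 0.05, open points otherwise and a red bar at the median of the list. The 10 genes reach from -1.90 to 1.40, and the medians of the other 6 lists shown lie between -0.31 for receptors and 0.74 for hepatocyte markers.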

How the data were processed

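The RNA of 4 Huh7 libraries was sequenced. The authors trimmed the reads with Cutadapt, ran STAR against GRCh38 and obtained gene levels from RSEM. Versions and gene annotation are not given in the sources used here. The authors deposited 1 table of TPM values with 2 decimals, and because every library sums to 1000000 the unit was taken as TPM, although the methods speak of RPKM. No read counts are kept, so no counting interval was computed.

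On log2(TPM + 0.1), genes with a mean of at least 1 TPM were fitted with limma 3.58.1 (R 4.3.3, eBayes with trend, no block, Benjamini-Hochberg over all genes tested). Fold changes are on that scale and understate the change of low genes. The minimum is a mean over all 4 libraries, so that a low gene can reach it through the group where it is high. APOL1, SI, APOC4 and ABCG1 are examples. An exact two-sided permutation test of 2 libraries against 2 cannot give a p under 0.33, so p-values rest on the spread shared across genes. The fit was tested on simulated data with independent libraries and few changed genes. It cannot show how the fit behaves here, where most genes were called and the independence of the libraries is unknown. Named were all 10 members, up to 4 rises and 4 falls per list, the 3 nearest patterns of members past 2-fold, METTL16, and neighbours. ABCA1, CEBPA, PPOX, BCAM and ZPR1 were named after their values were seen. The members and lists were chosen with earlier results of these data known. Positions are from GENCODE release 44 (GRCh38). Python 3.11.15, pandas 2.3.3 and matplotlib 3.10.9 were used. Alternatives were other pseudocounts (1 and 0.01), filters (all genes above 0, or a mean of at least 5 TPM), scalings (median-ratio, quantile, and without the 100 most abundant genes), the block, limma without trend, an unmoderated model and leaving out each library. MLXIPL, on the list of regulators, was not analysed here. Some genes of the lists are not reported here.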

Additional observations from a re-analysis of the deposited data

How the results depend on the processing

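No member changed direction under any of the alternatives run for it (14 each, 13 for APOA4), and 7 of the 10 passed an adjusted p of 0.05 in limma or the unmoderated model under all of them. APOB and APOE missed it only in the unmoderated model, as given in the report. APOA4 missed it under 8 of 13, with log2 fold changes from 0.064 to 0.34, and has no value with a minimum mean of 5 TPM, which leaves it out. Counts over all genes moved by more than 1.5 times in a few settings. The unmoderated model called 1949 genes lower, against 3065. With at least 2-fold required, quantile normalization called 698 lower and 586 higher, against 451 and 922. Testing every gene listed above 0 in any library gave 1555 higher, and raising the minimum mean to 5 TPM gave 575. These filters change which genes are tested. For the others the cause was not tested. The log2 ratio of the summed TPM of the 10 genes was -0.94 as deposited, -1.11 with median-ratio scaling and -1.02 when rescaled without the 100 most abundant genes.

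With the replicate block, 3112 genes were lower and 6048 higher and the same 4 and 6 members were called. The deviations of same-numbered libraries had a correlation of -0.044 across genes. With 1 deviation per group, this value cannot show whether same-numbered libraries shared a batch, and the labels do not say so. The 4 libraries leave 1 residual degree of freedom under the block. The limma adjusted p of APOH was 3.7e-230 with the block, against 2.7e-10 without it. The counts under the block therefore add little as a check. Leaving out 1 library leaves its group with a single library, which is assumed to vary like the other group. Without read counts, depth limits the low genes, such as APOA4, by an amount that cannot be given.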

Other observations

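Several genes of the lists were below the minimum level and were not tested. LPA, the apolipoprotein of lipoprotein(a), had 0.15 and 0.19 TPM with sgNS against 0.62 and 0.51 TPM with sgMETTL16. APOF, a minor plasma apolipoprotein, had 0.34 and 0.27 TPM with sgNS against 0.93 and 0.81 TPM with sgMETTL16. APOD had 0.18 and 1.24 TPM with sgNS against 0.08 and 0.43 TPM with sgMETTL16, with overlapping groups. APOL3, APOL5, APOOL, CETP and LPL were at 0.12 TPM or less in every library, and APOL4 was at 0 in all 4.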
